A study of Sus scrofa with 3 samples.

Results

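The genes described here are the hepatic mRNAs whose level differed between castrated and intact pigs and stayed at the castrated level when castrated pigs received testosterone. They were chosen by the measured values themselves. A gene entered the set when its FPKM (reads per kilobase of transcript, scaled to the library) was at least 20 in all 3 libraries, when log2(CM/IM) was at least 0.8 in size (1.74-fold), and when log2(CMT/CM) was below 0.3 in size (1.23-fold). Of 22945 mRNA features among 34579 deposited features, 10351 reached the FPKM minimum, and 71 of these met the rule. The set held 19 genes that were higher in CM than in IM, 0.184% of the genes tested, and 52 that were lower, 0.502%. Since CM/IM and CMT/CM selected the genes, their values are given as descriptions and no test was applied to them.

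The study asked how the loss of testosterone alters the liver of male pigs on a diet rich in fat and cholesterol, and whether replacement restores it. IM were intact males with a sham operation, CM were surgically castrated males, and CMT were castrated males that received weekly intramuscular testosterone propionate from the day of castration. All were Chinese Wuzhishan miniature pigs, 6-7 months old when the study obtained them and so older when the livers were taken. All ate that diet after acclimation and surgery, so no library came from a pig on a standard diet. RNA from the livers of 3 pigs was pooled for each group per the labels, fewer than the study kept per group, and each pool gave 1 library. There was therefore no replicate, no p-value is given, and the intervals below cover counting error within a library only. Variation between pigs, and any difference between the pools other than the treatment, cannot be told apart from the group.

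Testosterone acts on the liver both directly and indirectly through the pituitary, whose pulses of growth hormone drive male-typical transcription and the synthesis of IGF1. The testis also releases other hormones, and castration removes these as well. The liver in addition follows feeding and the time of day, through insulin, glucagon, glucocorticoids and the circadian clock, and genes such as PPARGC1A and PER1 are textbook readouts of those signals.

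Most genes that differed between CM and IM moved back toward IM in CMT. Among the 276 genes that were at least 0.8 higher in CM on the log2 scale, 2.67% of the genes tested, 19 stayed at the CM level in CMT (6.88%), 253 moved back by 0.3 or more (91.7%) and 4 moved further away. Among the 572 genes that were at least 0.8 lower, 5.53% of the genes tested, 52 stayed (9.09%), 511 moved back (89.3%) and 9 moved further away. A movement back was not always complete, since 10 of the 253 and 30 of the 511 still lay 0.8 or more from IM in CMT. In the set, 11 of the 19 higher genes and 33 of the 52 lower genes lay 0.8 or more from IM in CMT, and the rule itself places every member more than 0.5 from IM there. Across all genes tested, 58.6% had a log2(CMT/CM) below 0.3 in size, so a small difference between CM and CMT is in itself common.

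**Figure D1:**
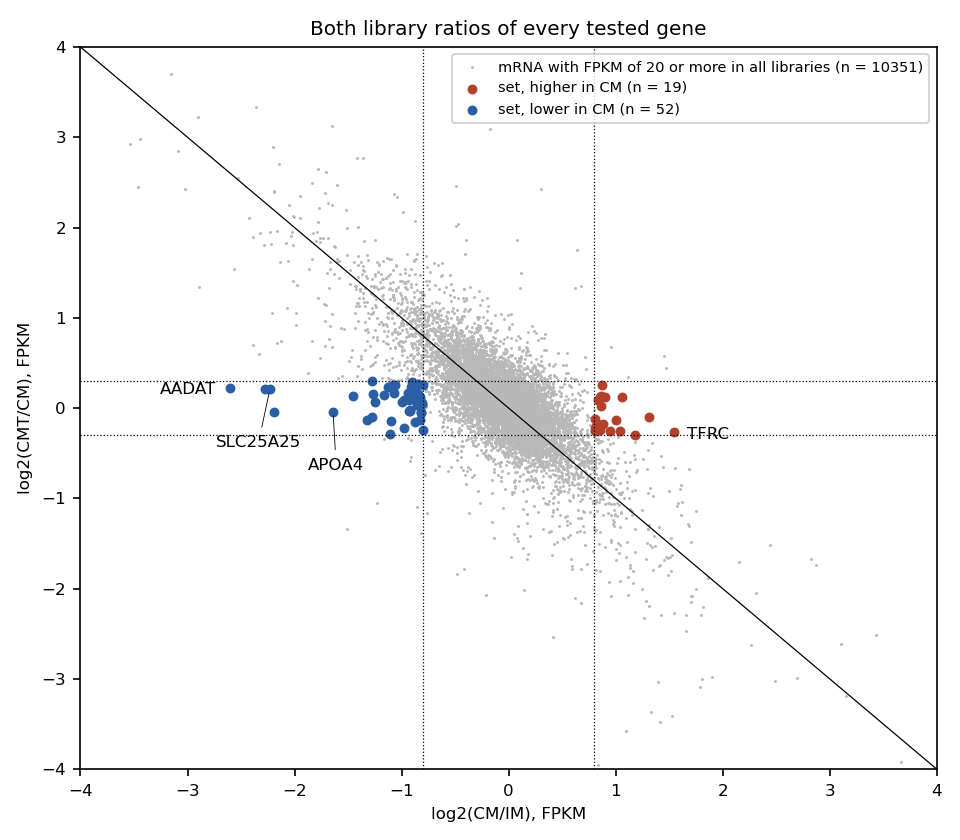
Log2(CM/IM) on the horizontal axis and log2(CMT/CM) on the vertical axis for the 10351 tested mRNAs, with dotted lines at the thresholds and a solid line where CMT equals IM. The 19 higher and 52 lower genes of the set lie between the horizontal dotted lines, apart from the cloud along the solid line; 14 genes lie outside the plotted range.

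The same thresholds can be turned to each library in turn. The set is the group of genes in which IM stood apart from both castrated libraries, at 71 genes or 0.686% of those tested. CM stood apart from IM and CMT in 409 genes (3.95%), and CMT stood apart from IM and CM in 91 (0.879%). CM enters both ratios of the rule, so a deviation of that single library can move a gene out of the set or into it. IM is the library apart in the set, and a deviation of that single pool cannot be told apart from castration.

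The scale between libraries bears on which genes are members. The deposited values divide reads by a library factor that was larger for CM, relative to its recovered reads, than for the other libraries. When each library was scaled to its recovered reads, log2(CM/IM) shifted by 0.28 and log2(CMT/CM) by -0.24 for every gene, while log2(CMT/IM) shifted by 0.04. The rule then took 47 higher and 32 lower genes in place of 19 and 52, and 683 higher and 275 lower genes were past 0.8 in place of 276 and 572. Only 7 of the higher and 13 of the lower genes of the set met the rule under the deposited scale and under all 4 other scalings tried (recovered reads, column sums, the upper quartile and the median ratio). The higher ones were SCD, GSTA4, BMI1, AJUBA, PROSER2, MLF1IP and LOC100156627. The lower ones were AADAT, SLC25A25, APOA4, METTL12, DNAJC12, SLC16A6, MSX1, PPP1R10, RHOU, NR0B2, NHSL1, LOC100737768 and LOC102164268. A further 6 higher and 10 lower genes met the rule under none of the other 4. The named ones were TFRC, PARVB, XKR9, ARPP-19, RHOB, CSRNP1, CCNYL1, ATIC, COG7 and ACSM5. Scaled to recovered reads, TFRC and RHOB had a log2(CMT/CM) of -0.51 and -0.53, toward IM for TFRC and away from IM for RHOB. Of the other 4 scalings, FZD4, FZD5 and FOXO3 met the rule under the median ratio alone.

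**Figure D2:**
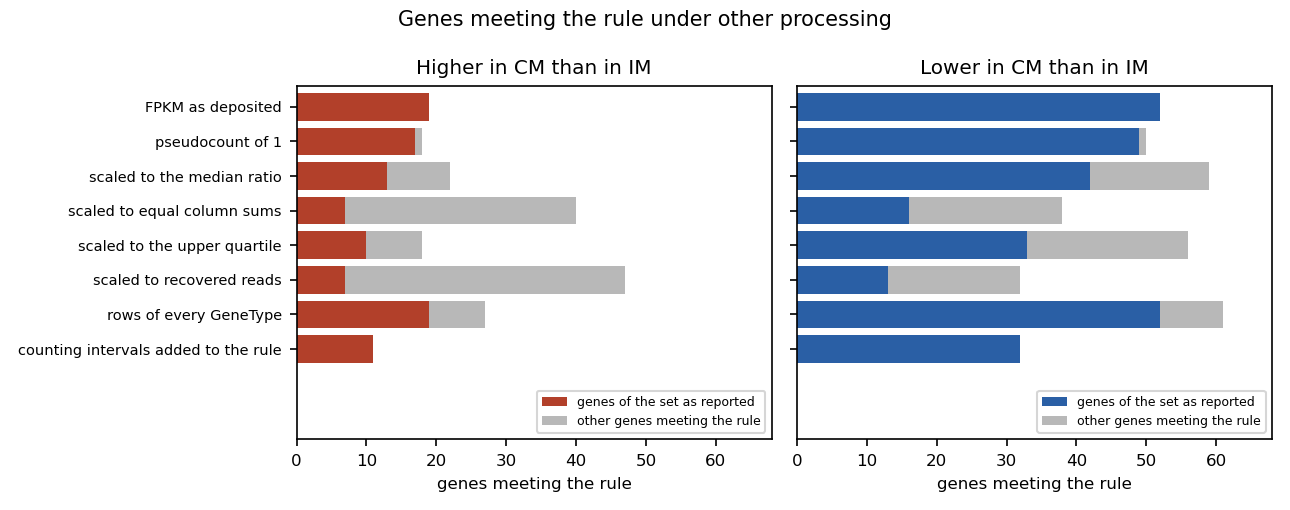
Number of genes meeting the rule, higher in CM (left) and lower in CM (right), under the deposited scale and under other processing; coloured bars are genes of the set as reported and grey bars are other genes. Scaling to recovered reads kept 7 of 19 higher and 13 of 52 lower genes and added others.

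The pools also differed in cell markers. Hepatocyte markers (ALB, APOA1 and others) summed to 984341 FPKM in IM, 735733 in CM and 731141 in CMT, far above every other marker list in each library. Most of this was ALB, with 690375, 476360 and 445509. TF and HNF4A were highest in CMT, and the other rows of this list in IM. The log2 ratio of the hepatocyte sum was -0.42 for CM/IM and -0.01 for CMT/CM. Red blood cell markers summed to 17238 FPKM in IM, 3417 in CM and 5183 in CMT, nearly all of it HBB, a haemoglobin chain, and 1 of the 4 rows found reached the FPKM minimum. Neutrophil markers summed to 157, 66.6 and 41.0 FPKM, with none of the 6 rows at the minimum. Both sums were thus highest in IM. From CM to CMT the red blood cell sum rose, with a log2(CMT/CM) of 0.60, and the neutrophil sum fell, with -0.70. Both values were past the limit that the rule sets on this ratio. Even so, both sums were lower in CM and in CMT than in IM, with a log2(CM/IM) of -2.33 and -1.24. Among the neutrophil rows LTF, S100A12, S100A8 and S100A9 were highest in IM, while CSF3R and MPO were not. Adipocyte markers summed to 95.7, 49.9 and 85.9 FPKM, with 2 of 4 rows at 0 in every library, and Kupffer cell markers to 20202, 18815 and 21954. T and NK cell markers summed to 628, 793 and 503 FPKM, B and plasma cell markers to 140, 159 and 148, endothelial markers to 3817, 3102 and 3542, stellate cell markers to 1530, 1602 and 1341 and cholangiocyte markers to 893, 849 and 1220, while skeletal muscle markers stayed below 1 FPKM in sum. None of the genes of the set is a marker on any of the 11 lists, and the part of cell makeup in the results was not tested. In such bulk RNA, fewer cells of a type and less RNA per cell cannot be told apart.

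In the 19 genes higher in CM, the median log2(CM/IM) was 0.87, the median log2(CMT/CM) was -0.13 and the median log2(CMT/IM) was 0.88, against -0.04, 0.07 and 0.02 over all genes tested. CMT lay between CM and IM in 12 of them and above CM in 7, but scaled to recovered reads, equal column sums or the upper quartile it lay above CM in 1 gene, GSTA4. On the deposited scale 6 were at least 2-fold higher in CM. Most of the named genes described belonged to iron uptake, the desaturation of fatty acids, conjugation with glutathione, cell adhesion, and chromatin and cell division. Each of these held 1 to 3 genes. PROSER2, TCAIM, XKR9 and SH3BGRL were placed in none of them.

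TFRC, the transferrin receptor that takes iron into cells, had the largest difference among the higher genes. Its FPKM was 144 in IM, 421 in CM and 349 in CMT, or 2.93-fold higher in CM than in IM (log2 1.55, 95% counting interval 1.44 to 1.66). Its log2(CMT/CM) was -0.27, and the interval of -0.35 to -0.19 lay wholly on the side of IM, yet CMT remained 2.43-fold above IM. TFRC was the only member among 40 tested genes of iron, copper, zinc and heme. In that list 4 other genes were past 0.8 higher in CM, among them the metallothioneins MT1A and MT-2B, and 4 were past 0.8 lower, and all 8 moved back in CMT. HAMP, the iron-regulating hormone hepcidin, measured 4028, 1669 and 2875 FPKM in the same order. The iron stores and exporter were not past 0.8 in CM/IM, with FTH1 at 36534, 41983 and 34230, FTL at 76882, 84454 and 65805 and SLC40A1 at 941, 879 and 1211. TFR2, the second transferrin receptor, measured 2496, 2055 and 2803. The summed red blood cell markers given above differed in the opposite direction to TFRC, with a log2(CM/IM) of -2.33, and their part in this result was not tested.

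SCD, the stearoyl-CoA desaturase that makes monounsaturated fatty acids, was the most abundant higher gene, with 788 FPKM in IM, 1414 in CM and 1506 in CMT. Its log2(CM/IM) was 0.84 (interval 0.81 to 0.88) and its log2(CMT/CM) was 0.09 (interval 0.06 to 0.12). That side turned with the scale, to -0.16 with equal column sums, -0.15 with recovered reads and -0.04 with the upper quartile.

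Other genes of the same list did not share this pattern. Among 30 tested genes of fatty acid synthesis, desaturation and triglycerides, SCD was the only gene past 0.8 higher in CM, and 6 were past 0.8 lower and moved back. ACACA, the rate-limiting carboxylase of fatty acid synthesis, measured 158, 64.9 and 140 FPKM in IM, CM and CMT, and FASN, the fatty acid synthase, 318, 198 and 266. FADS2, another desaturase, measured 1172, 1298 and 320, low in CMT alone. Among 75 tested genes of glucose, glycogen and fructose metabolism, PPP1R3C, a glycogen-targeting phosphatase subunit, moved further from IM with 57.8, 161 and 219 FPKM.

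GSTA4, a glutathione transferase that conjugates the lipid peroxidation product 4-hydroxynonenal, measured 149 FPKM in IM, 271 in CM and 325 in CMT. It was 1.83-fold higher in CM and 2.19-fold higher in CMT than in IM, with a CMT/CM interval of 0.08 to 0.45. Its log2(CMT/CM) was 0.26, but 0.02 with recovered reads or equal column sums. GSTA4 was the only member among 58 tested genes of phase II conjugation and glutathione, of which 4 were past 0.8 higher and 9 past 0.8 lower. Its relative GSTA1 measured 19021, 25395 and 11614 FPKM, below IM in CMT.

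The other named higher genes were in none of the 23 lists and are grouped by what they do after their names were seen. Adhesion and cytoskeleton held PARVB, a parvin of focal adhesions, with 42.8, 87.8 and 73.6 FPKM in IM, CM and CMT, and AJUBA, a LIM protein of cell junctions, with 29.8, 55.5 and 60.5. Nuclear and cell division proteins held BMI1, a Polycomb subunit, with 25.6, 46.5 and 50.9 FPKM, MLF1IP, a centromere protein, with 21.6, 45.2 and 49.2, and ARPP-19, a phosphatase inhibitor of mitotic entry, with 85.1, 149 and 125. MLF1IP and PARVB rested on few reads, at 20, 57 and 37 and at 53, 148 and 74. The MLF1IP interval of log2(CM/IM) ran from 0.31 to 1.88. PROSER2 (53.0, 96.3 and 97.8), TCAIM (29.8, 55.0 and 48.7), XKR9 (24.5, 44.1 and 37.2) and SH3BGRL (24.0, 42.0 and 36.1) completed the named genes described here.

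The remaining 6 higher genes carried LOC numbers without a gene name. LOC100626667 and LOC100624445 followed SCD in abundance among the higher genes, with 526, 925 and 853 FPKM and 420, 750 and 662 FPKM in IM, CM and CMT. LOC102160117 (30.6, 69.4 and 56.4) and LOC102166594 (110, 220 and 202) were at least 2-fold higher in CM. LOC100521431 measured 31.8, 61.4 and 51.6 and LOC100156627 measured 74.9, 135 and 147.

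**Figure D3:**
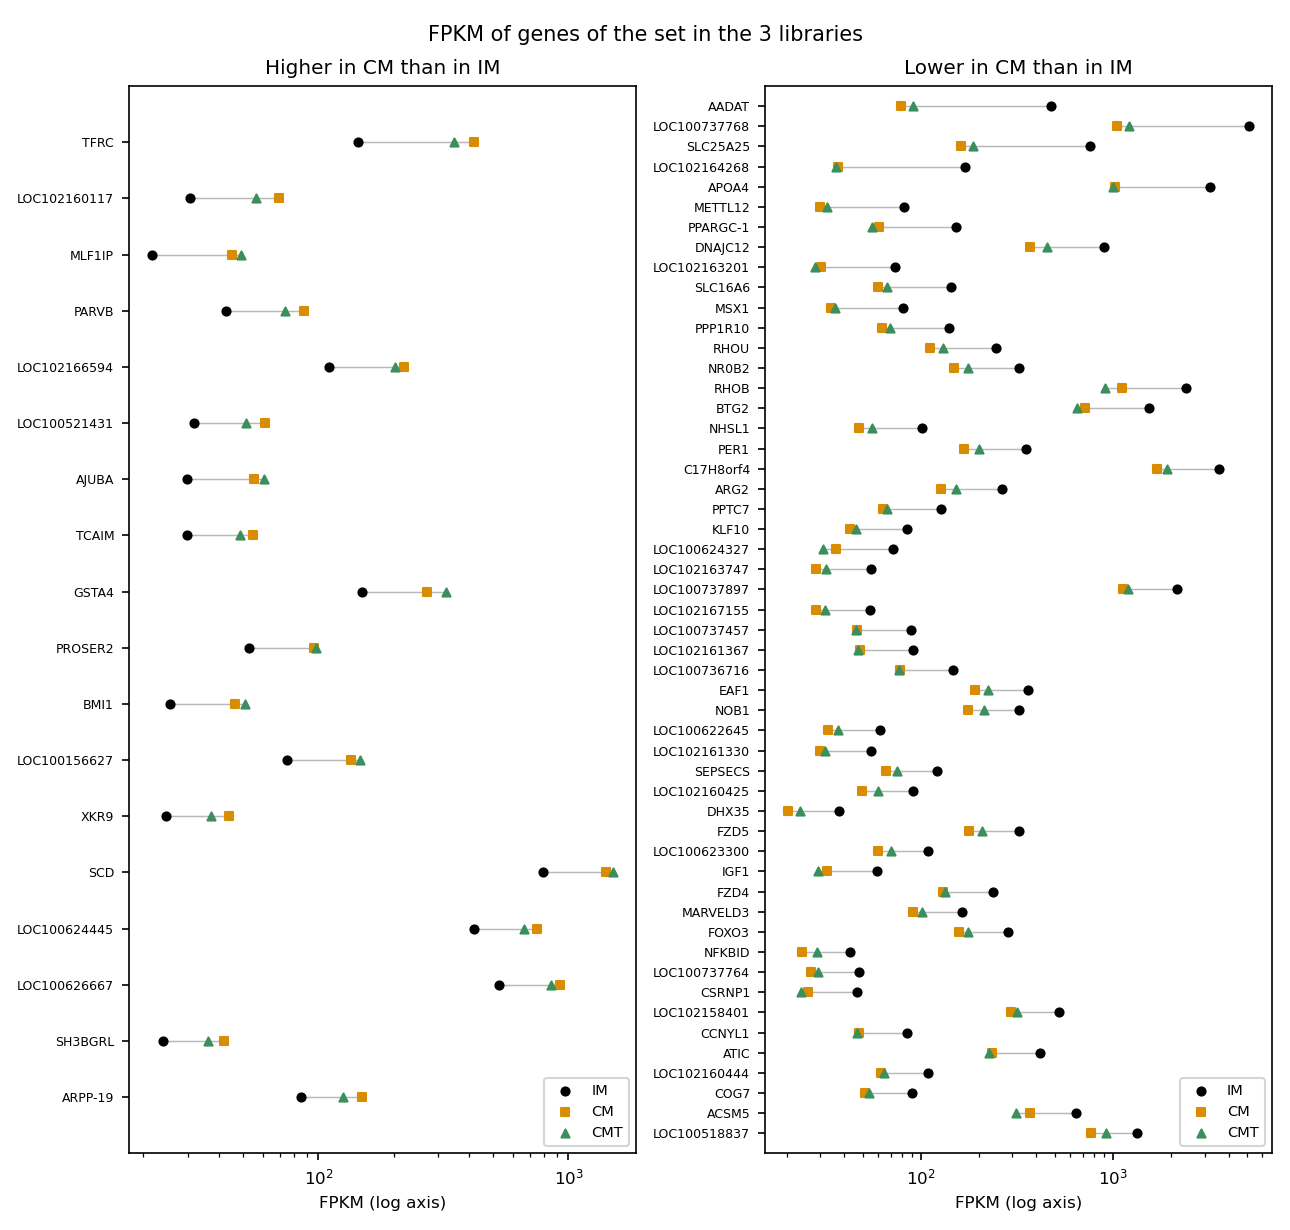
FPKM of 70 of the 71 genes in the IM (circle), CM (square) and CMT (triangle) libraries on log axes, higher genes on the left and lower genes on the right, ordered by the size of log2(CM/IM). CM and CMT lie near each other in every row by the rule that chose the genes. IM lies apart from CM, from 1.74-fold up to 6.07-fold for AADAT, and from CMT by as little as 1.45-fold for LOC100518837.

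In the 52 genes lower in CM, the median log2(CM/IM) was -0.93, the median log2(CMT/CM) was 0.14 and the median log2(CMT/IM) was -0.88. CMT lay between CM and IM in 37 of them and below CM in 15, but scaled to recovered reads or to equal column sums it lay above CM in 7 and below it in 45. On the deposited scale 20 were at least 2-fold lower in CM. Of these genes 13 fell in a list: amino acid catabolism, lipoproteins and bile acids, fatty acid oxidation, glucose metabolism, solute transport, chaperones, the growth hormone and sex steroid axis, the clock, and early response genes held 1 or 2 each. The largest differences were in AADAT, LOC100737768, SLC25A25, LOC102164268 and APOA4, all over 3-fold.

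AADAT, the mitochondrial aminotransferase that acts on kynurenine and aminoadipate, differed most. It measured 478 FPKM in IM, 78.7 in CM and 91.5 in CMT, 6.07-fold lower in CM than in IM and 5.22-fold lower in CMT than in IM. The log2(CM/IM) interval ran from -2.80 to -2.41, and the CMT/CM interval of -0.06 to 0.49 included 0. ARG2, the mitochondrial arginase, measured 266, 128 and 153 FPKM, while ARG1, the arginase of the hepatic urea cycle, measured 2332, 1878 and 1932. AADAT and ARG2 were the members among 115 tested genes of amino acid catabolism, urea and one-carbon metabolism. In that list 23 genes were past 0.8 lower, and the other 21 moved back. SDS, serine dehydratase, measured 12000, 424 and 4697 FPKM, TAT, tyrosine aminotransferase, 10757, 4380 and 7074, and HAL, histidine ammonia-lyase, 315, 118 and 151. HAL and SDS counted as moved back although their log2(CMT/IM) was still -1.06 and -1.35.

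Mitochondrial and membrane carriers came next. SLC25A25, a calcium-regulated carrier of ATP-Mg and phosphate across the inner mitochondrial membrane, measured 760 FPKM in IM, 162 in CM and 187 in CMT, 4.70-fold lower in CM. SLC16A6, a monocarboxylate transporter linked to the export of ketone bodies from hepatocytes, measured 144, 59.8 and 66.7 (log2(CM/IM) -1.27). They were the members among 89 tested solute carriers, of which 16 were past 0.8 lower and 14 moved back. SLC25A47, a liver mitochondrial carrier, measured 3208, 812 and 2093 and so moved back by more than 1 on the log2 scale. METTL12, a mitochondrial methyltransferase, measured 81.6, 29.8 and 32.6, and PPTC7, a mitochondrial phosphatase, 127, 63.5 and 66.6.

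Among lipid genes, APOA4, an apolipoprotein of chylomicrons and HDL, measured 3195 FPKM in IM, 1025 in CM and 999 in CMT. It was 3.12-fold lower in CM and 3.20-fold lower in CMT than in IM, with a CMT/CM interval of -0.10 to 0.03. Other apolipoproteins were closer to IM in CMT: APOA5 measured 5430, 2679 and 3827, APOA1 78115, 63098 and 66662, APOC3 110614, 104124 and 107488, and APOB 6529, 4630 and 6453. NR0B2 (SHP), the receptor that represses bile acid synthesis downstream of FXR, measured 323, 149 and 175 FPKM. NR1H4, which encodes FXR itself, measured 760, 382 and 694, and CYP7A1, the rate-limiting enzyme of bile acid synthesis, 937, 1531 and 1177. APOA4 and NR0B2 were the members among 60 tested genes of bile acids, sterol efflux and lipoproteins, where 9 were past 0.8 lower and 7 moved back.

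ACSM5, a mitochondrial acyl-CoA synthetase for medium-chain acids, measured 642, 369 and 312 FPKM and lay close to the threshold, with a log2(CM/IM) of -0.80. No reads could be recovered for it, so it has no interval. Its relative ACSM4 measured 10546, 5841 and 14427 and ACSM3 316, 201 and 337, both above IM in CMT. Of 83 tested genes of fatty acid oxidation, ketogenesis and peroxisome, 20 were past 0.8 lower in CM, ACSM5 and PPARGC1A stayed, and 18 moved back, among them CPT1A with 831, 353 and 812.

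PPARGC1A, listed as PPARGC-1, is the coactivator of mitochondrial biogenesis and of fasting gluconeogenesis. It measured 152 FPKM in IM, 60.8 in CM and 55.6 in CMT, 2.50-fold lower in CM (interval of the log2 ratio -1.55 to -1.10) and 2.73-fold lower in CMT than in IM. When scaled to recovered reads its log2(CMT/CM) was -0.37, past the limit on the side away from IM. It was 1 of 12 genes of glucose metabolism past 0.8 lower, and the other 11 moved back. PCK1, which opens gluconeogenesis, measured 15266, 6514 and 11000. FOXO1 and FOXO3 are transcription factors restrained by insulin, and FOXO3 was in the set with 284, 158 and 176 FPKM, whereas FOXO1 measured 265, 67.1 and 127 and FOXO4 151, 102 and 145. FOXO1 thus moved back by 0.92 on the log2 scale, but its log2(CMT/IM) of -1.07 was further from 0 than that of FOXO3 at -0.69. The citrate cycle and oxidative phosphorylation list held no member, and 1 of its 93 tested genes was past 0.8.

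Hormone and clock genes gave IGF1 and PER1. IGF1, the growth factor that the liver secretes under growth hormone, measured 59.4 FPKM in IM, 32.6 in CM and 29.1 in CMT, with 166, 124 and 66 recovered reads. Its log2(CM/IM) was -0.87 (interval -1.21 to -0.52), and its CMT/CM interval was wide, from -0.62 to 0.28. Scaled to recovered reads, its log2(CM/IM) was -0.59, short of the threshold. Other growth hormone readouts moved back in part or whole: CISH measured 365, 78.3 and 275 FPKM, SOCS2 578, 129 and 214, and IGFALS, the stabilising subunit of circulating IGF complexes, 728, 344 and 807. The log2(CMT/IM) of SOCS2 was still -1.43, further from 0 than that of IGF1 at -1.03. GHR, the growth hormone receptor, measured 935, 610 and 1007, and IGF2 1010, 717 and 824. In this list of 53 tested genes 12 were past 0.8 lower, IGF1 and PER1 stayed and 10 moved back.

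PER1, a repressor of the circadian clock, measured 353, 168 and 200 FPKM. Its log2(CMT/CM) was 0.26 (interval 0.17 to 0.34), but 0.02 with recovered reads and 0.01 with equal column sums. Of the 13 tested clock genes, 5 were past 0.8 lower, and PER2 (123, 37.4 and 72.9), NFIL3 (725, 202 and 635), RORA and USP2 moved back. PER3 measured 74.9, 61.4 and 52.6. The clock list had a median log2(CM/IM) of -0.56 and a median log2(CMT/IM) of -0.41, against -0.04 and 0.02 over all genes tested. The hour at which each liver was taken is not given in the sources used here.

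Early response genes gave BTG2 and KLF10. BTG2, an antiproliferative gene induced by p53 and by stress, measured 1533 FPKM in IM, 716 in CM and 652 in CMT. Its CMT/CM interval of -0.19 to -0.08 lay away from IM. KLF10, a factor induced by TGF-beta, measured 85.0, 43.0 and 45.8. Of 57 tested early response and stress genes, 15 were past 0.8 lower, 11 moved back, and EGR1 (417, 147 and 57.9) and RGS16 (536, 304 and 116) moved further from IM. FOS was low in CMT alone, with 630, 842 and 145. In the same families BTG3 measured 443, 237 and 534, KLF9 693, 292 and 431 and KLF15 972, 482 and 807, and all of these moved back, while KLF11 (77.2 in IM and 42.7 in CM) moved further away with a log2(CMT/CM) of -1.09.

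DNAJC12, a co-chaperone of the aromatic amino acid hydroxylases, measured 901, 371 and 456 FPKM. On the deposited scale it was the lower gene nearest the limit of the second ratio, with a log2(CMT/CM) of 0.299 (interval 0.14 to 0.46), but the value was 0.06 with recovered reads and 0.05 with equal column sums. Among 66 tested chaperones 3 were past 0.8 lower, and the other 2 moved back.

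Among the lower genes in no list, grouped after their names were seen, small GTPases and Wnt receptors each gave a pair. RHOB, an endosomal and early-induced GTPase, measured 2415, 1118 and 914 FPKM in IM, CM and CMT, and its CMT/CM interval (-0.40 to -0.19) lay away from IM. RHOU, an atypical GTPase, measured 246, 112 and 131. Their relatives RHOA (692, 847 and 741) and RHOC (858, 688 and 720) were not past 0.8. FZD4 (238, 131 and 133) and FZD5 (325, 178 and 209), receptors for Wnt ligands, were the FZD genes tested, and both were in the set on the deposited scale. C17H8orf4, the pig counterpart of a gene linked to Wnt signalling, was the second most abundant lower gene, with 3570, 1702 and 1913 FPKM.

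Factors acting in the nucleus held MSX1, a homeobox factor (81.2, 34.1 and 35.7 FPKM), PPP1R10, a nuclear targeting subunit of phosphatase 1 (140, 62.5 and 68.9), EAF1, which binds an elongation factor (361, 192 and 225), CSRNP1 (46.3, 26.0 and 23.8) and NFKBID, an atypical inhibitor of NF-kappaB (43.0, 24.0 and 28.9). MSX1 rested on 42, 24 and 15 reads, and its log2(CM/IM) of -1.25 had an interval of -2.04 to -0.50. Enzymes and RNA factors held ATIC, a bifunctional enzyme of purine synthesis (417, 236 and 227), SEPSECS, which makes selenocysteinyl-tRNA (122, 66.2 and 74.8), NOB1, an endonuclease of ribosomal RNA maturation (326, 175 and 214), and DHX35, a helicase (37.4, 20.3 and 23.6). COG7, a Golgi tethering subunit (89.9, 51.4 and 53.7), MARVELD3, a tight junction protein (164, 91.0 and 102), CCNYL1, a cyclin Y relative (84.5, 47.8 and 46.5), and NHSL1 (102, 47.7 and 55.8) completed the named genes.

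The other 18 lower genes carried LOC numbers without a gene name. LOC100737768 was the most abundant gene of the whole set, with 5110 FPKM in IM, 1049 in CM and 1216 in CMT, 4.87-fold lower in CM. LOC102164268 measured 170, 37.1 and 36.1 (4.57-fold), LOC100737897 2163, 1132 and 1204, and LOC100518837 1335, 767 and 918. LOC102163201 (73.3, 30.2 and 28.2 FPKM) rested on 16, 9 and 5 reads, and its CMT/IM interval ran from -3.18 to 0.14. It was the only gene with an interval whose CMT/IM interval included 0.

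**Figure D4:**
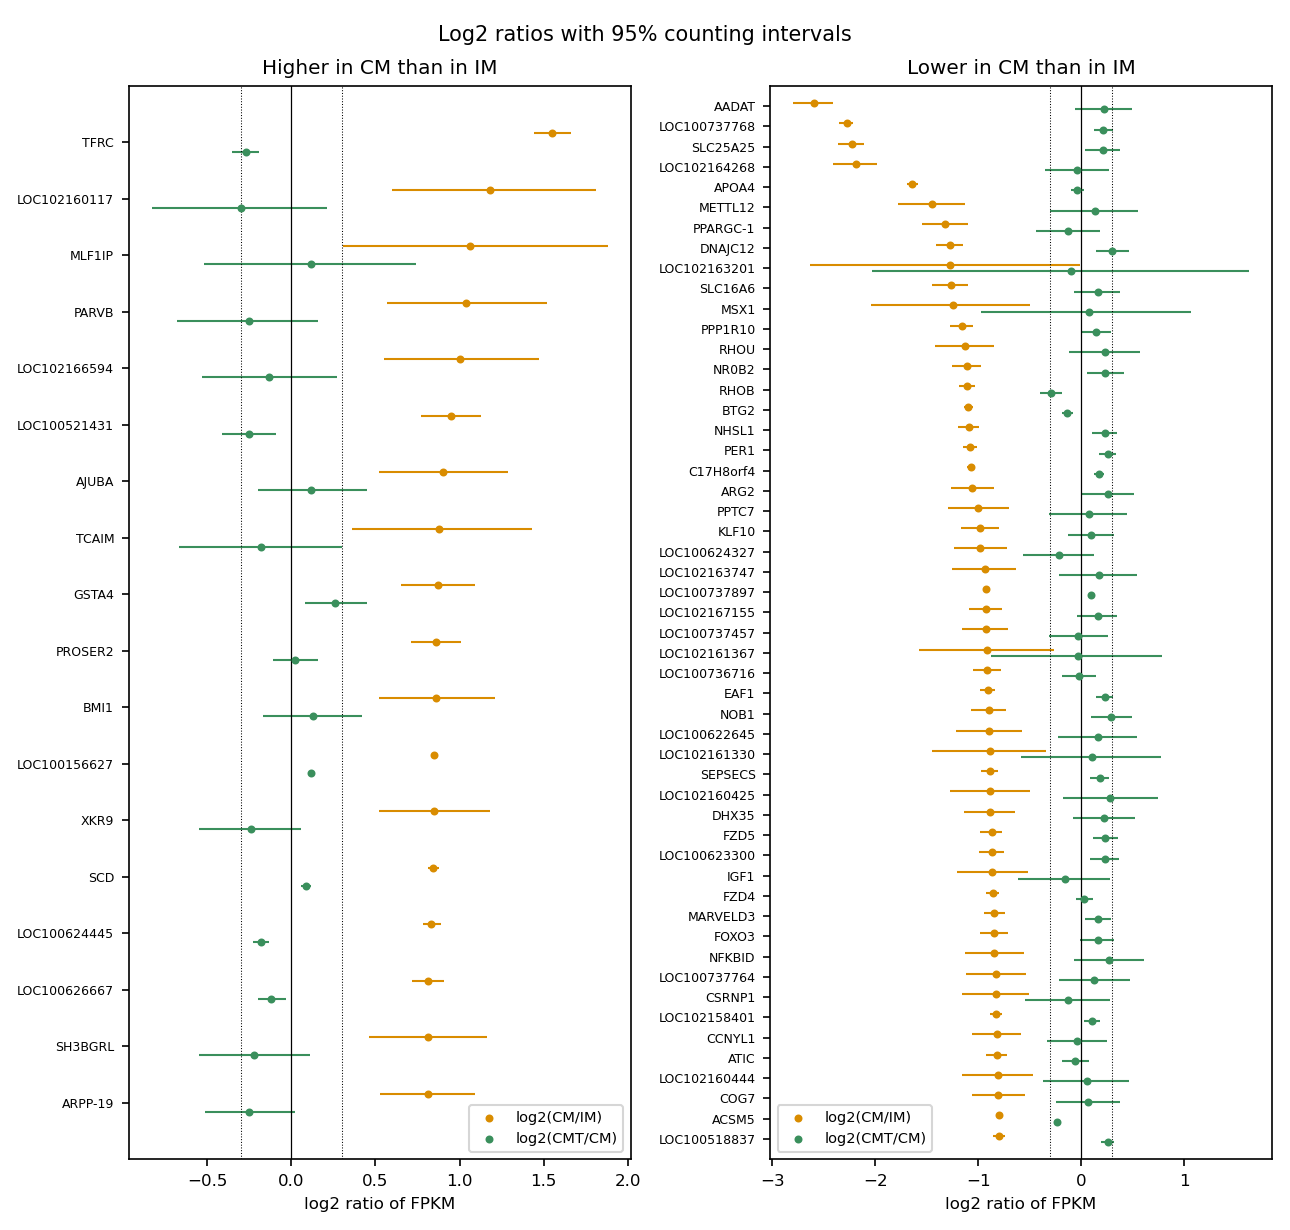
Log2(CM/IM) and log2(CMT/CM) of 70 of the 71 genes of the set with 95% exact binomial intervals on recovered reads, higher genes on the left and lower genes on the right; dotted lines mark 0.3 and points without a bar had no recovered reads. All CM/IM intervals shown exclude 0, while the CMT/CM intervals of many genes reach beyond 0.3.

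Counting error set how firmly the second ratio held. Reads were recovered for 18 of the 19 higher and 50 of the 52 lower genes. These intervals are on the ratios that chose the genes, so they describe precision and support nothing. The CM/IM interval excluded 0 in all 68, and lay wholly past 0.8 in 3 higher and 21 lower genes. The CMT/CM interval included 0 in 11 higher and 32 lower genes, and lay wholly inside 0.3 in 5 and 10. It lay on the side of IM in 5 higher and 16 lower genes, and away from IM in 2 and 2. These sides depended on the scale: with recovered reads the interval lay on the side of IM in 12 higher and 0 lower genes, and away from IM in 0 and 10. The CMT/IM interval excluded 0 in all 18 higher genes and in 49 of the 50 lower genes, a ratio that the rule keeps away from 0.

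Genes at the thresholds had values close to those just past them. HSPH1, a chaperone, had a log2(CM/IM) of 0.799 and was left out, while ARPP-19 at 0.807 was a member. BGLAP was just short of -0.80 and was left out, while ACSM5 at -0.801 was a member. TJP3, with a log2(CMT/CM) of -0.300, was left out and LOC102160117 at -0.299 was a member. Among lower genes LOC100525578 at 0.307 and TMEM181 at 0.309 were left out, and DNAJC12 at 0.299 and NOB1 at 0.294 were members. At the FPKM minimum PARD6B (19.1, 36.4 and 35.2) and ADAMTS1 (34.8, 19.3 and 17.9) fell short.

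Genes of 11 lists gave no member, although several held genes past 0.8. All 23 interferon-stimulated genes that were past 0.8 higher in CM, of 65 tested, moved back in CMT, and so did the 6 genes of antigen presentation, beside 91.7% of all higher and 89.3% of all lower genes past 0.8. Of 66 tested genes of cytochrome P450 and other phase I enzymes, 8 were past 0.8 higher and 11 lower, and all moved back. The 5 sterol synthesis genes and the 16 acute phase, complement and coagulation genes past 0.8 lower also moved back, as did 2 higher acute phase genes and 7 higher and 7 of the 8 lower cytokine genes. Cell cycle genes gave 9 higher, of which 8 moved back, and 1 lower. Extracellular matrix genes gave 5 higher and 1 lower, and lymphoid genes 1 and 1, and these moved back. None of the 75 ribosomal protein genes was past 0.8.

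**Figure D5:**
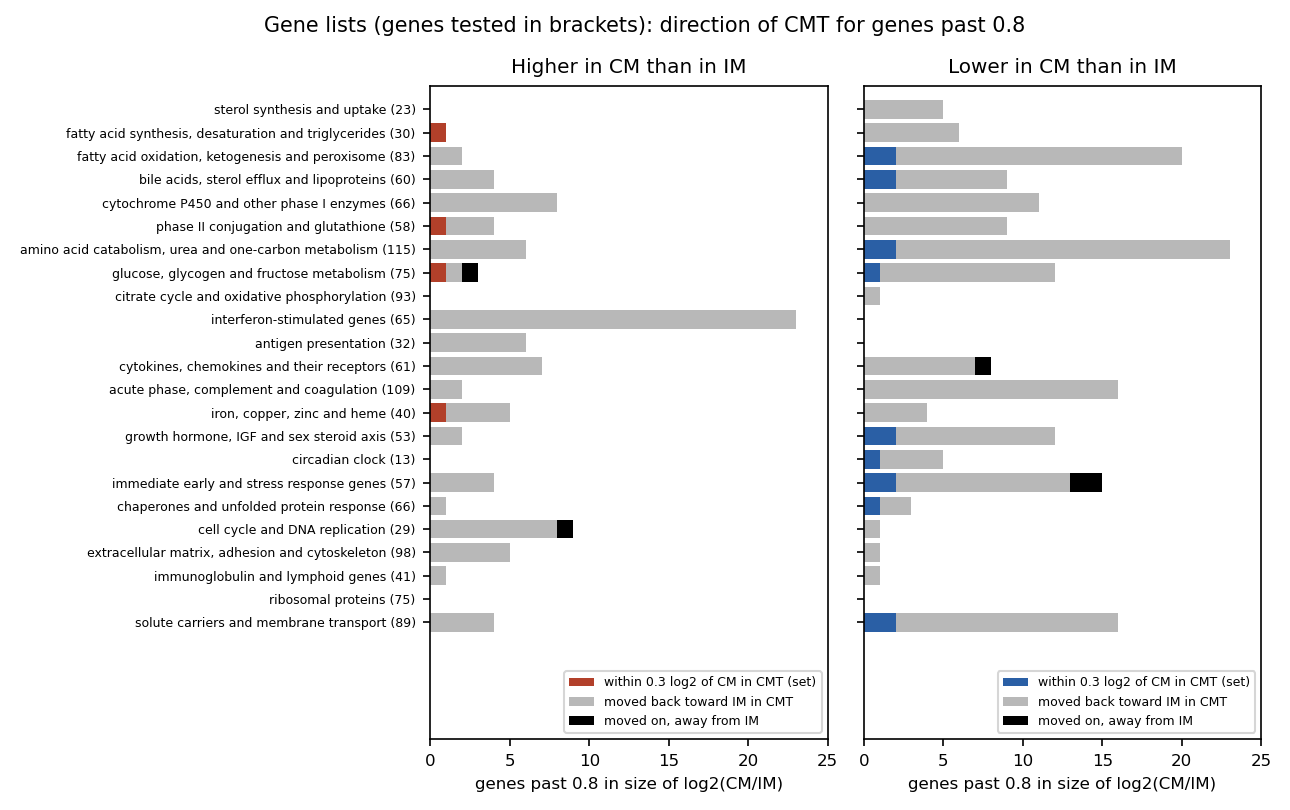
Genes past 0.8 in size of log2(CM/IM) in each of the 23 gene lists, higher in CM on the left and lower on the right, with the number of genes tested in brackets; coloured bars are genes of the set, grey bars genes that moved back toward IM in CMT and black bars genes that moved further away. Coloured bars hold at most 2 genes per list, and the 23 interferon-stimulated genes are grey throughout.

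Naming, level in IM, recovered length and gene order were also described for the set, and other shared features were not examined. The median recovered length was 1070 bases for higher and 1460 for lower genes, against 1575 over all tested. Such a length is too short where a common factor was lost. LOC numbers made up 42.1% of the higher and 44.2% of the lower genes, against 23.8% of all genes tested. The median FPKM in IM was 53.0 for higher and 146 for lower genes, against 99.3 over all tested. The rule uses the IM level, so this contrast is partly set by the selection. In CMT the medians were 97.8 for higher and 69.3 for lower genes. Of the 71 genes, 52 had an entry in the RefSeq annotation of the Sscrofa11.1 assembly and 50 were placed on a chromosome there. Among these only CCNYL1 and FZD5 were direct neighbours, with 0 genes between them.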

How the data were processed

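Liver RNA of 3 pooled libraries (IM, CM and CMT; grouped by the labels) was measured by RNA-Seq. The authors sequenced poly-A selected libraries as paired-end reads, checked them with FastQC, mapped them to Sscrofa 10.2 with TopHat at default parameters and deposited FPKM values per feature. The counting program and annotation are not given in the sources used here. FPKM values were used without rescaling or a pseudocount, as ratios of 2 libraries.

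Values are whole multiples of a step per gene, which gave reads, within a tolerance of 0.001, for 23100 features of up to 10000 bases: 32196552 (IM), 36125172 (CM) and 25418984 (CMT). An FPKM of 20 on 1 kb equals 50.2, 68.4 and 40.8 reads. The smallest solution was taken, so a common factor can be lost and intervals be too wide; where both mates were counted they are too narrow. Intervals are 95% exact binomial intervals of the reads of 2 libraries, and the recovery was tested on simulated data.

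No test across genes was possible with 1 library per group. Members and gene lists were chosen with earlier results of these data known. Named genes are the members with a gene name (1 is not reported here), members with the largest ratios or levels, up to 4 genes per list, genes beside each threshold, and, chosen after their values were seen, further list genes and relatives by symbol. Python 3.11.15, numpy 2.4.6, pandas 2.3.3, scipy 1.17.1 and matplotlib 3.10.9 were used.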

Additional observations from a re-analysis of the deposited data

How the results depend on the processing

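The counts of 19 higher and 52 lower genes depended on the rule and the scale. Higher and lower genes numbered 44 and 68 with an FPKM minimum of 10, 10 and 32 with 50, and 196 and 199 with none. They numbered 6 and 20 with a log2(CM/IM) of at least 1, 77 and 118 with 0.6, 11 and 32 with a log2(CMT/CM) below 0.2, and 36 and 76 below 0.4. Equal column sums gave 40 and 38 and recovered reads 47 and 32, with shifts of 0.26 and 0.28 in log2(CM/IM); the median ratio gave 22 and 59, the upper quartile 18 and 56 and a pseudocount of 1 18 and 50. Adding the counting intervals to the rule left 11 and 32. Genes that moved back numbered 2491 without a minimum, 436 at 1 and 1253 at 0.6, against 764. Genes with CM alone apart numbered 1083, 204 and 790 in these settings, against 409. Genes with CMT alone apart numbered 488, 40 and 250, against 91, and 138 with a minimum of 10 and 56 below 0.2. The side of CM on which CMT lay, examined under the scalings after the data were seen, was that of IM in 12 higher and 37 lower genes as deposited and in 18 and 7 with recovered reads. Promoter motifs of the members were not run, since no sequence was used here. No paired analysis was possible because each group is 1 library.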

Other observations

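Among 910 rows of other gene types that reached the FPKM minimum, 31 were at least 0.8 higher and 84 at least 0.8 lower in CM than in IM on the log2 scale. Of these, 8 of the 31 and 9 of the 84 met the rule of the set, beside 6.88% of higher and 9.09% of lower mRNAs past 0.8. The row tRNA-His measured 92.4, 314 and 369 FPKM in IM, CM and CMT, and LOC100512447, named GGCT (gamma-glutamylcyclotransferase) in RefSeq, measured 134, 257 and 223. PREI2 measured 56.6, 137 and 123. The mitochondrial 12S ribosomal RNA measured 2097, 1087 and 1075, lower in both castrated libraries. MIR425, a microRNA precursor, measured 39.8, 21.9 and 24.5. Poly-A selection is not designed for tRNA, rRNA and short precursors, and these values have no replicate.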
